A study of Mus musculus with 2 samples.

Results

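The Msx and Dlx genes, 8 homeobox genes of the mouse (Msx1, Msx2 and Dlx1 to Dlx6) among 21896 protein-coding genes placed on the genome, were examined for called chromatin contacts in hair matrix keratinocytes. The members were named by family, and a contact was taken where an anchor bin lay within 10 kb of either annotated end of the gene. Hi-C joins DNA ends that are close in fixed nuclei and reads the joined pairs. It had been run on sorted primary cells at postnatal day 4.5, with 1 library per genotype. Hair matrix keratinocytes are the dividing cells of the follicle bulb whose progeny form the hair and its sheath. The DKO library came from Tet2/Tet3 DKO mice, in which Krt14-Cre removes both genes, and the WT library from mice labelled wild type. TET2 and TET3 oxidise 5-methylcytosine, the methylated base found mainly at CG dinucleotides. Krt14-Cre acts in epithelial cells that descend from Krt14-positive progenitors, so other cells of a DKO mouse keep both genes. The sources used here do not say whether the WT mice carried the Cre, how many mice were used or whether they were pooled.

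MSX and DLX proteins bind DNA through related homeodomains that recognise a TAATT core. MSX proteins act mostly as repressors and DLX proteins mostly as activators, and the families can pair with each other. In skin, BMP signalling acts upstream of Msx2 and Dlx3. Msx2 acts in the matrix and the forming hair shaft and lies upstream of Foxn1. Dlx3 is needed to form the hair shaft and the inner root sheath around it. Msx1 is known best from tooth and palate, Dlx1 and Dlx2 from forebrain interneurons and the branchial arches, Dlx5 and Dlx6 from jaw, limb and bone, and Dlx4 from the placenta. The Dlx genes lie in convergent pairs, separated here by 15.2 kb (Dlx3 and Dlx4), 9.43 kb (Dlx1 and Dlx2) and 9.83 kb (Dlx6 and Dlx5).

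The promoters of Msx1 and Msx2 are shown because both genes had called contacts and because the methylated base that TET proteins oxidise lies mainly at CG dinucleotides. The lists hold no methylation, so a CG count does not say how much of it was methylated. The RefSeq promoter table (GRCm38.p6) held 4 of the 8 members, Msx1, Msx2, Dlx1 and Dlx2. Each line is the 250 bases before the transcription start, read 5′ to 3′ on the gene's minus strand, with CG in capitals. The Msx1 window is chr5:37824586-37824835 and the Msx2 window is chr13:53472781-53473030.
Msx1: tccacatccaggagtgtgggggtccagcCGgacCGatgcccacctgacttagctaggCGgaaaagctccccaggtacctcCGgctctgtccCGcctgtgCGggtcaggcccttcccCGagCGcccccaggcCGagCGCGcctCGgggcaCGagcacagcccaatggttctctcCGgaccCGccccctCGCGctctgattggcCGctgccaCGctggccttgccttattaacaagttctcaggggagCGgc
Msx2: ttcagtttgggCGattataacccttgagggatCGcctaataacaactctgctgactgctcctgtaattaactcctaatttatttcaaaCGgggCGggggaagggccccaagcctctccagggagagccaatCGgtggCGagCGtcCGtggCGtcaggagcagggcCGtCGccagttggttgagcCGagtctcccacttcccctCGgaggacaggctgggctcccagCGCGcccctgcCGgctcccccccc
The Msx1 window held 20 CG and the Msx2 window 16, against a median of 6 over 32851 windows of the same length and an upper quartile of 16. The Dlx1 and Dlx2 windows, at genes without a called contact, held 22 and 24. The homeodomain core TAATT had 3 matches in the Msx2 window at 2 places, since 2 matches overlap, and no match in the Msx1 window. It was found in 25.0% of all windows. All motifs were searched on both strands. CCAAT had 2 matches in the Msx1 window and 1 in the Msx2 window, against 33.8% of windows with any. GGGCGG, which itself contains a CG, had 1 match in each, against 32.7% of windows. Neither window held TATAAA (12.4% of windows), the TCF/LEF core CTTTGA (13.8%) or the SMAD element GGCGCC (9.59%). The Msx2 window lay wholly inside an anchor bin of both lists, chromosome 13, 53470001 to 53475000. The Msx1 start site was 4585 bp from the nearest anchor bin in both lists.

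Each deposited list holds enriched pixels, a pixel being a pair of bins of 5 kb, with the observed contact count and the counts expected from 4 surrounding neighbourhoods. Enrichment below is observed over the expected count of the donut-shaped neighbourhood, with an exact Poisson 95% interval that covers counting error only. The DKO list held 4872 pixels and the WT list 5811, with 95103 and 113348 observed contacts in all. These sums cover called pixels and are not sequencing depths. At the 1940 pixels in both lists the median DKO/WT ratio of donut expected counts was 0.973, which is also not a ratio of sequencing depths. With 1 library per genotype there was no replicate error and no test, and a difference between the lists compares 2 libraries, not 2 genotypes. A pixel missing from a list was not called there, and its count is unknown. Contacts carry no expression, so the labelled cell type could not be checked against marker genes.

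Pixels were called at 3 of the 8 members in the DKO list and at 3 of 8 in the WT list, and they were the same 3 genes, Msx1, Msx2 and Dlx3. This is 37.5% of the 8 members. Over all protein-coding genes the share with a pixel was 20.1% in the DKO list and 21.1% in the WT list. The members had 12 pixels in DKO and 17 in WT, and 9 of them were the same pair of bins in both. The DKO share of member pixels was 41.4% (Clopper-Pearson 95% interval 23.5 to 61.1), against 45.6% of all pixels. The interval takes pixels as independent, which neighbouring pixels of 3 genes, 9 of them counted in both lists, are not. Every DKO pixel had a WT pixel within 2 bins at both anchors, while 4 WT pixels had no such DKO pixel. Of the 12 DKO pixels all had their partner at the higher coordinate, and so had 16 of the 17 WT pixels. Msx1 and Msx2 are read on the minus strand, so each of their partners lay on the upstream side of the start site.

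**Figure D1:**
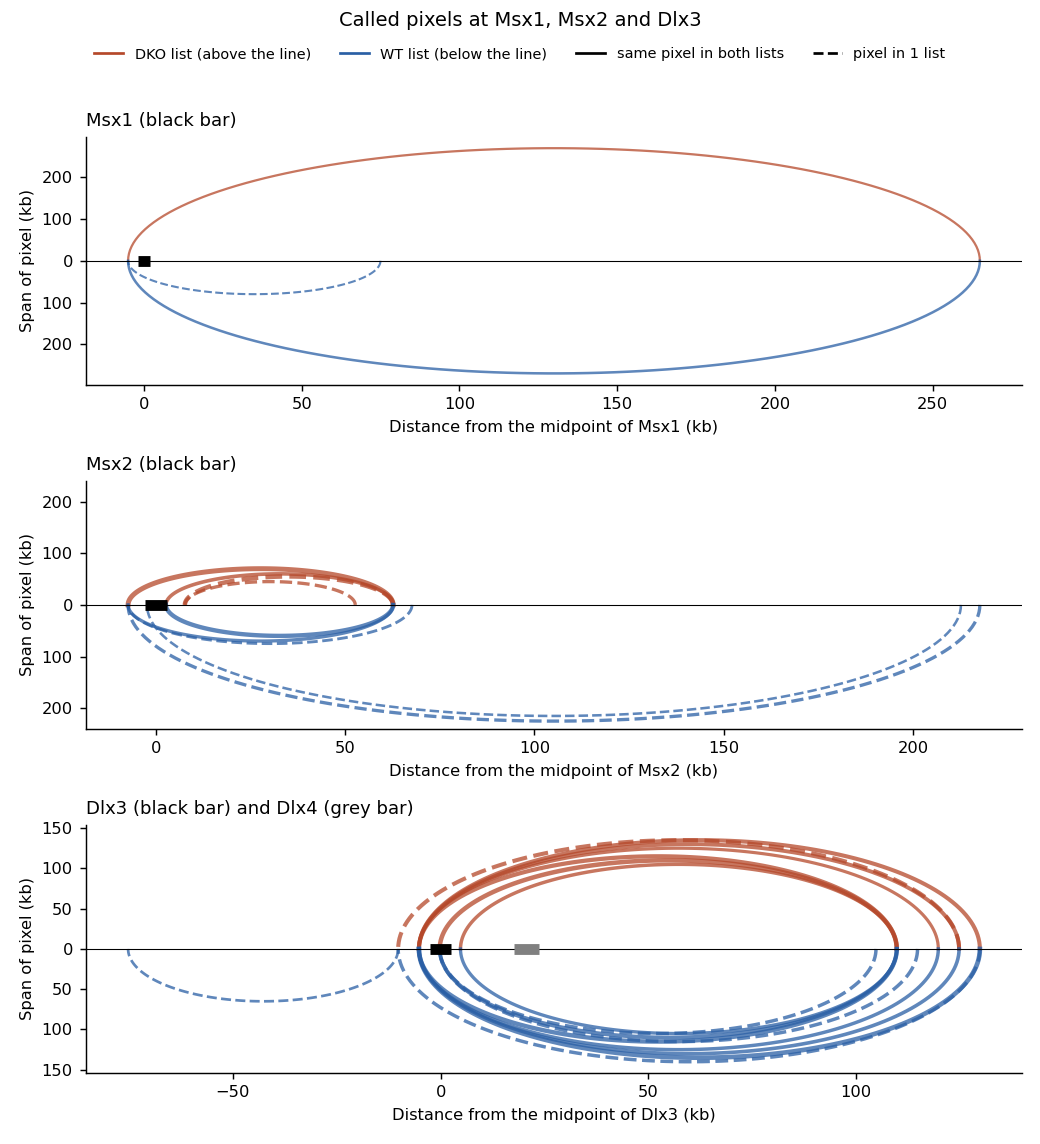
Called pixels at Msx1, Msx2 and Dlx3. The horizontal axis is the distance in kb from the midpoint of the gene, arcs join the centres of the 2 bins of a pixel, arc height is the span in kb, and line width follows the observed count. Arcs of the DKO list (12 pixels) are above the line and arcs of the WT list (17 pixels) below it, solid where the same pixel is in both lists and dashed where it is in 1. The 2 longest Msx2 arcs and the Dlx3 arc to the left occur in the WT list alone.

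Dlx3 (gene ID 13393, chromosome 11, 95120117 to 95125296) had the most pixels of the family, 7 in DKO and 10 in WT. At an FDR under 0.01 in all neighbourhoods it had 6 in DKO and 5 in WT, so that the order of the lists turned and Dlx3 had as many WT pixels as Msx2. Among genes with any pixel the median was 1, and 2.64% of 4391 genes in DKO and 0.734% of 4631 genes in WT had as many as Dlx3 or more. In DKO all 7 pixels formed 1 loop, a loop being pixels joined where both anchors lay within 20 kb. In WT 9 of the 10 pixels formed the same loop. It ran from bins around Dlx3 (95110001 to 95130000 in both lists) over Dlx4 to 95230001 to 95255000 in DKO and 95225001 to 95255000 in WT. The partner bins lay inside the long noncoding RNA gene Gm11515 (95180965 to 95259963). Only the last bin, 95250001 to 95255000, was within 10 kb of an end of a protein-coding gene, Tac4, which encodes a tachykinin precursor.

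The DKO pixels of this loop had 21 to 30 observed contacts and the 9 WT pixels 22 to 31. In DKO the highest count was at the bin that holds the lower end of Dlx3, with 30 contacts over 110 kb to 95230001, 4.46 times expected (3.01 to 6.37). The same pixel had 26 contacts in WT, 3.91 times expected (2.55 to 5.73). In WT the highest count was at the neighbouring bin, 95115001 to 95120000, with 31 contacts over 135 kb to 95250001, 6.24 times expected (4.24 to 8.85). Against the bottom-left expected count this value was 3.98, and against the horizontal one, the largest of the 4, it was 3.83. That pixel had 27 contacts in DKO, 5.19 times the donut expected count (3.42 to 7.54). The highest count was thus at 95230001 in DKO and at the last partner bin, near Tac4, in WT, and at each of these pixels the intervals of the lists overlap. Within each list the next count was close, 28 in DKO and 29 in WT, in both at 95115001 to 95230001. The place of the highest count is therefore uncertain in either list.

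From the bin 95115001 to 95120000 the lists also shared pixels to 95230001, 95240001 and 95245001. These had 28, 21 and 26 contacts in DKO, against 29, 23 and 24 in WT. The remaining shared pixel joined the bin with the upper end of Dlx3 to 95230001, with 23 contacts in DKO and 22 in WT. Summed over the 6 shared Dlx3 pixels, DKO had 155 contacts on 35.2 expected and WT had 155 on 33.8 expected, that is 4.41 and 4.58 times expected. The pixel 95110001 to 95245001 was in the DKO list alone (27 contacts, 4.79, 3.15 to 6.97). Another 3 were in the WT list alone, 95110001 to 95250001 (23 contacts, 4.39, 2.78 to 6.58) and, from the bin of the lower gene end, pixels to 95225001 (23 contacts, 3.42, 2.17 to 5.13) and 95235001 (23 contacts, 3.44, 2.18 to 5.17). Each of these 4 pixels had a pixel of the other list within 2 bins at both anchors.

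The tenth WT pixel at Dlx3 pointed the other way, over 65 kb from 95110001 to 95045001, inside Itga3, the integrin alpha 3 gene of basal keratinocyte adhesion. It had 18 contacts, 4.04 times expected (2.40 to 6.39), and an end of Pdk2, a pyruvate dehydrogenase kinase, was also within 10 kb of its partner bin. Its neighbour in the same WT loop, 95040001 to 95105001, had 26 contacts (4.22, 2.76 to 6.18) and missed the distance rule, at 10117 bp from Dlx3. The DKO list held 1 pixel there, 95050001 to 95095001, with 21 contacts (3.30, 2.05 to 5.05), at 20117 bp from Dlx3. This DKO pixel lay within 2 bins of the WT neighbour at both anchors, and not within 1 bin. The WT pixel that met the rule at Dlx3 had no DKO pixel within 2 bins. Pixels from the region of Itga3 and Pdk2 towards Dlx3 were thus called in both lists, and came within 10 kb of Dlx3 in WT alone. Whether they are the same contact depends on the matching distance. The farthest bin that met the rule at Dlx3 was 95110001 to 95115000, 5117 bp from the gene.

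Msx2 (gene ID 17702, chromosome 13, 53466881 to 53472780) had 4 pixels in DKO and 5 in WT, with 109 observed contacts in each list. It had 2 pixels in DKO and 5 in WT at an FDR under 0.01 in all neighbourhoods, and 4 in DKO and 3 in WT with at least 20 contacts, so the order of the lists depended on the threshold. A short loop with shared pixels over 60 and 70 kb was in both lists. Its partner bin, 53530001 to 53535000, holds an end of the long noncoding RNA gene Gm34022 and no end of a protein-coding gene within 10 kb. In DKO the pixel from 53460001 to this bin had 33 contacts, 5.23 times expected (3.60 to 7.34), against 22 contacts in WT, 4.04 times expected (2.53 to 6.12). From the promoter bin, 53470001 to 53475000, the order was the other way, with 24 contacts in DKO (3.21, 2.05 to 4.77) and 29 in WT (4.22, 2.82 to 6.06). Summed over both pixels DKO had 57 contacts and WT 51, or 4.13 and 4.14 times expected.

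The remaining DKO pixels of the Msx2 loop started at the bin just above the gene, 53475001 to 53480000. They had 30 contacts to 53530001 (4.27, 2.88 to 6.09) and 22 to 53520001 (3.13, 1.96 to 4.74). The remaining WT pixel of the loop joined 53460001 to 53535001, with 19 contacts (4.41, 2.66 to 6.89). All pixels of this loop had a pixel of the other list within 2 bins at both anchors.

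A longer Msx2 loop, of 2 pixels over 215 and 225 kb, was in the WT list alone. It joined 53460001 to 53685001 with 22 contacts, 6.05 times expected (3.79 to 9.16), and 53465001 to 53680001 with 17 contacts, 5.52 times expected (3.22 to 8.84). The partner bins hold ends of the long noncoding RNA genes Gm34278 and Gm34332. The highest of the 4 FDRs was 4.6e-05 and 0.00208, so both stayed at an FDR under 0.01 in all neighbourhoods. The DKO list held no pixel within 2 bins of either. Among DKO pixels within 10 kb of the same spans the lowest observed count was 11, although the count needed for a call also depends on the local expected count.

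The partner bins of the Msx2 loops were themselves joined in both lists. The pixel from 53530001 to 53680001, over 150 kb, had 23 contacts in DKO (5.45, 3.46 to 8.18) and 16 in WT (3.74, 2.14 to 6.08), a DKO/WT ratio of 1.46 (0.737 to 2.95). In WT all 3 sides of the triangle of Msx2, 53530001 and 53680001 were called, and in DKO the side from Msx2 to 53680001 was not. The WT sides did not meet in the same Msx2 bin. The pixel to 53680001 started at 53465001, and those to 53530001 at 53460001 and 53470001. The bin 53460001 was joined to 53685001, next to 53680001. From 53530001 the DKO list also held pixels to 53630001 (17 contacts, 3.21, 1.87 to 5.14) and 53695001 (17 contacts, 4.24, 2.47 to 6.79) that were not in the WT list. The WT list held a pixel from the adjoining bin, 53535001 to 53570001 (20 contacts, 3.00, 1.83 to 4.63), that was not in the DKO list.

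Msx1 (gene ID 17701, chromosome 5, 37820491 to 37824585) had 1 pixel in DKO and 2 in WT. All started at 37815001 to 37820000, 491 bp beyond the 3′ end of the gene. The pixel over 270 kb to 38085001 was in both lists, with 15 contacts in DKO, 4.66 times expected (2.61 to 7.68), and 17 in WT, 5.82 times expected (3.39 to 9.32). Its partner lies inside Stx18, which encodes a syntaxin of the endoplasmic reticulum, and over 10 kb from any end of a protein-coding gene. The other WT pixel, over 80 kb to 37895001, had 14 contacts, 3.77 times expected (2.06 to 6.33), at an end of the noncoding gene Gm20052. No Msx1 pixel had more than 17 contacts, and the highest of the 4 FDRs was 0.0869 in DKO and 0.0133 and 0.0490 in WT. At an FDR under 0.01 in all neighbourhoods Msx1 had no pixel in either list, and the members with a pixel were Msx2 and Dlx3 in both, against 9.5% of all genes in DKO and 10.8% in WT.

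**Figure D2:**
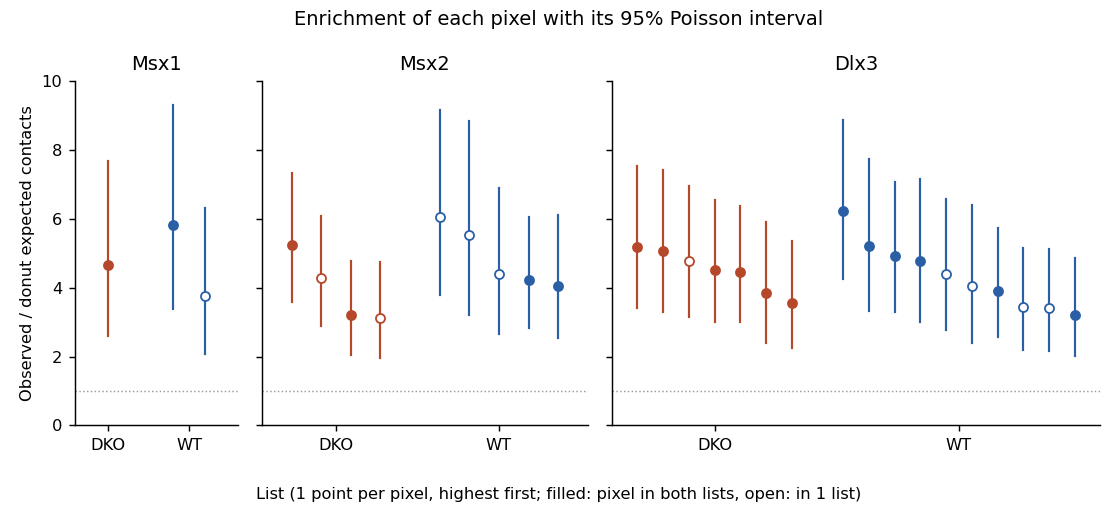
Enrichment of each pixel (vertical axis, observed over donut expected contacts) at Msx1, Msx2 and Dlx3, with its exact 95% Poisson interval as a bar. DKO pixels stand left of WT pixels, each ordered from the highest, filled where the pixel is in both lists and open where it is in 1. The DKO points run from 3.13 to 5.23 and the WT points from 3.20 to 6.24, with overlapping intervals.

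No pixel was called within 10 kb of Dlx4, Dlx1, Dlx2, Dlx5 or Dlx6 in either list. Dlx4 (chromosome 11, 95140447 to 95146294) was the closest miss, at 10447 bp from the anchor bin that holds the upper end of Dlx3, 95125001 to 95130000, in both lists. With a reach of 20 kb it had 2 pixels in DKO and 4 in WT, all of them also pixels of Dlx3. For Dlx2 (chromosome 2, 71543408 to 71546754) the nearest anchor bin was 48.2 kb away and for Dlx1 (71528113 to 71533981) 61.0 kb away, in both lists. Dlx5 and Dlx6 (chromosome 6, 6877801 to 6882068 and 6863334 to 6867970) had their nearest anchor bins 1320 and 1340 kb away in DKO, and 848 and 862 kb away in WT. The 8 members therefore divided in the same way in both lists. Contacts were called at Msx1, Msx2 and 1 gene of the Dlx3 and Dlx4 pair, and at no gene of the other Dlx pairs. Msx3, counted below among other homeobox genes and not as a member, had no pixel within 10 kb in either list.

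At the 9 member pixels in both lists the DKO/WT ratio of enrichment ran from 0.760 to 1.29, with a median of 0.919 (log2 -0.12). Ratios were under 1 at 6 pixels and over 1 at 3, and each of the 9 intervals included 1. The lowest and the highest ratio were both at Msx2, 0.760 (0.424 to 1.35) at the promoter bin and 1.29 (0.732 to 2.33) at the bin that starts 10 kb lower. At Msx1 the ratio was 0.800 (0.372 to 1.70), and at Dlx3 the 6 ratios ran from 0.810 to 1.14. Over all 1940 shared pixels the median ratio was 0.983, with log2 quartiles of -0.25 and 0.20. The sign of the members' median turned with the expected count from the vertical neighbourhood (log2 0.06), and each interval still included 1. Shared pixels passed the calling rule in both libraries, which limits how far their ratios can move. Expected counts at the member pixels were higher in DKO at 8 of 9, with a median DKO/WT ratio of 1.09, against 0.973 over all shared pixels, and the part of this in the ratios was not tested.

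**Figure D3:**
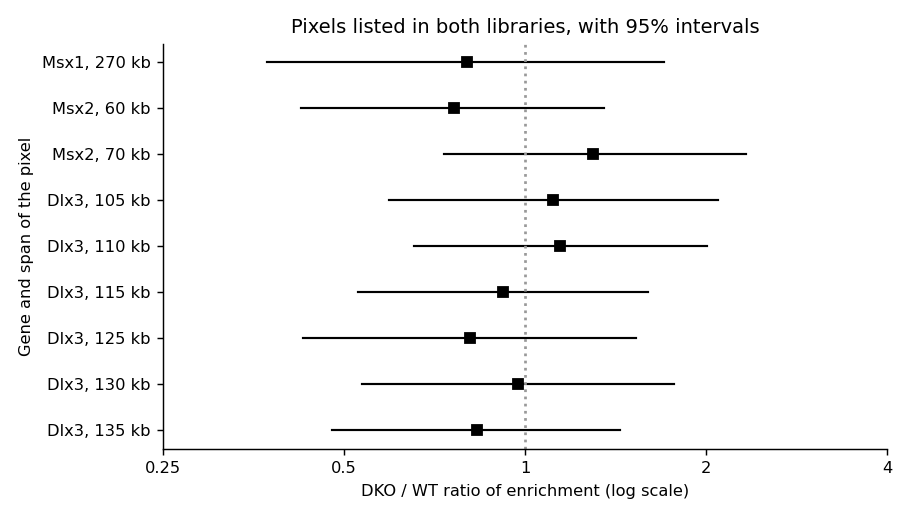
DKO/WT ratio of enrichment (horizontal axis, log scale) at the 9 pixels in both lists, named by gene and span on the vertical axis. Squares are the ratios and bars the exact 95% intervals of a ratio of counts, and all of the bars cross 1.

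The median observed count of the member pixels was 26.5 in DKO and 23 in WT, against 18 over all pixels of either list. Dlx3 held 7 of the 12 DKO and 10 of the 17 WT member pixels. The Msx1 pixels lay below 18, with 15 contacts in DKO and 14 and 17 in WT. So did the WT pixel of Msx2 over 215 kb, with 17. Observed counts were not compared at matched span. The median enrichment of the member pixels was 4.49 in DKO and 4.39 in WT, against 4.95 and 5.11 over all pixels. By enrichment, 3 of 12 DKO pixels and 5 of 17 WT pixels stood above the median of their list. Across pixels, enrichment was higher at longer spans (Spearman's rho 0.62 over 4872 DKO pixels and 0.60 over 5811 WT pixels, which share libraries and anchors), so each member pixel was also placed among pixels within 10 kb of its span. The median percentile was then 30.3 in DKO and 36.2 in WT. By the donut expected count the WT pixel at Dlx3 over 135 kb stood highest, at percentile 75.8 of 524 pixels, and the DKO pixel at Msx2 over 70 kb followed at 73.2 of 862. The lowest was a WT pixel at Dlx3 over 105 kb, at 0.75 of 667. The members' median span was 112.5 kb in DKO, against 100 kb over all DKO pixels, and 115 kb in WT, the same as over all WT pixels. These are descriptions of neighbouring pixels that share anchors.

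**Figure D4:**
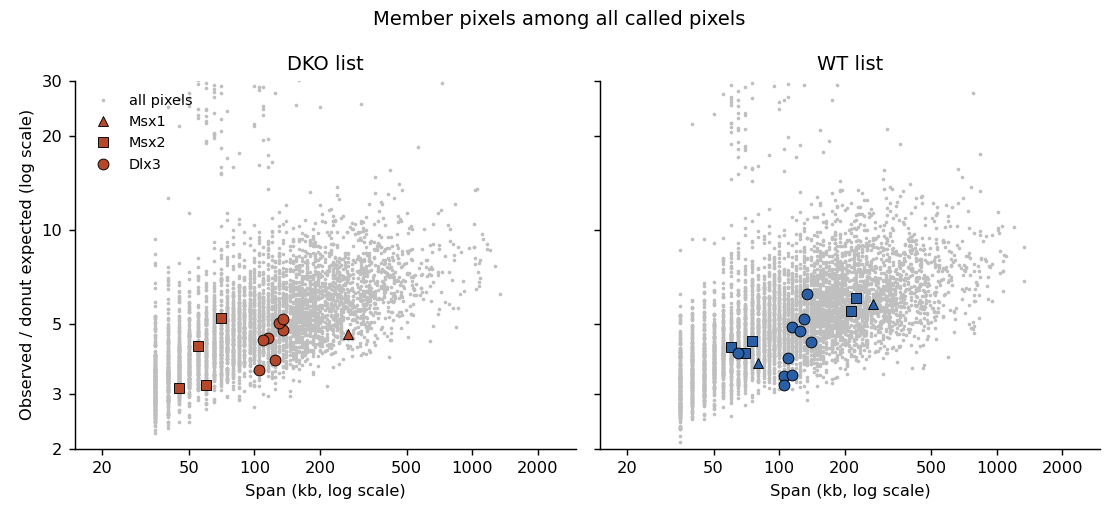
Span in kb (horizontal axis, log scale) and observed over donut expected contacts (vertical axis, log scale) of all called pixels (grey) and of the pixels at Msx1 (triangles), Msx2 (squares) and Dlx3 (circles), with the DKO list left of the WT list. The axes leave out 72 DKO and 65 WT pixels of other genes or regions. At their span, 3 of 12 DKO and 4 of 17 WT member pixels lie above the middle of the cloud.

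The signals, partners and targets of MSX and DLX proteins in skin were read from a list of 26 genes. Of these 5 had a pixel in DKO and 8 in WT, 4 of them in both, or 19.2% and 30.8% of the list against 20.1% and 21.1% of all genes. At an FDR under 0.01 in all neighbourhoods 4 of the 26 had a pixel in DKO and 6 in WT, against 9.5% and 10.8% of all genes. Notch1, a receptor active in the hair matrix, had 7 pixels in each list, and its pixel with the most contacts stood at 6.05 times expected in DKO (4.16 to 8.49) and 5.15 in WT (3.50 to 7.31). Foxn1, the shaft regulator downstream of Msx2, had 6 in each, with at most 41 contacts in a pixel in DKO (5.34, 3.83 to 7.24) and 36 in WT (5.48, 3.84 to 7.59). Nog, a secreted BMP antagonist, had 3 in DKO and 4 in WT, with the pixels of most contacts at 5.81 (3.55 to 8.98) and 6.27 times expected (3.98 to 9.41). Krt14, a basal keratin, had 5 in DKO and 2 in WT. Its pixel with the most contacts had 27 over 95 kb in each list, at 3.55 times expected in DKO (2.34 to 5.16) and 3.87 in WT (2.55 to 5.63). The genes with a pixel in 1 list had 1 or 2 pixels each, Bmpr1a in DKO, and Bmp2, Ctnnb1, Edar and Edaradd in WT. No pixel was called within 10 kb of Bmp4, Lef1, Trp63, Hoxc13 or Gata3 in either list. The genes of the last 2 sentences were named after their values were seen.

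Among 31 other homeobox genes of the same NKL class, 8 had a pixel in DKO and 10 in WT, 7 of them in both, or 25.8% and 32.3% of the list against 20.1% and 21.1% of all genes. Barx1, a gene of stomach and tooth development, led with 3 pixels in DKO and 5 in WT, those with the most contacts at 5.65 (3.29 to 9.04) and 5.63 times expected (3.44 to 8.69) over 145 kb in both lists. Lbx1, a gene of migrating muscle precursors, had 2 pixels in each list. Barhl1, of the inner ear and brain, had 2 in DKO and 1 in WT, and Nkx2-2, known from the neural tube and the pancreas, had none in DKO and 3 in WT. None of these 31 genes had as many pixels as Dlx3 in either list. The counts depended on reach and threshold. Within 5 kb they were 3 genes in DKO and 8 in WT, a reach at which the share of all genes was not computed. At an FDR under 0.01 they were 2 and 4, where 9.5% of all genes in DKO and 10.8% in WT had a pixel.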

How the data were processed

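The authors deposited 1 list of enriched pixels per library, written by juicer_tools 1.22.01 per the file headers. Juicer and the build GRCm38 (mm10) are named in the submitters' processing notes. The aligner, read filters and sequencing depth are not given in the sources. The authors deposited, per pixel, a raw count of observed contacts and, as a signal on the same scale, the contacts expected from 4 neighbourhoods. They also deposited a score numbering the class of expected counts, not used here, and q-values (FDRs), all under 0.1.

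From these lists the pixels at each member were taken with gene ends from a RefSeq table of GRCm38.p6, which gives no strand. Coordinates are 1-based. Pixels within 20 kb at both anchors were joined into loops by single linkage, and lists were matched within 2 bins. Intervals are exact 95% intervals, Poisson for enrichment, conditional binomial for ratios and Clopper-Pearson for shares. Expected counts were taken as fixed, so intervals cover counting error only. The code was checked on simulated data. Work was done in Python 3.11.15 with pandas 2.3.3 and SciPy 1.17.1. No test was run, because each genotype had 1 library. Genes named were the members, genes with an end near a partner bin or nearest to it, and the 4 genes of each list with most pixels. Other pathway genes, Msx3 and Itga6 were named after their values were seen. The members and lists were chosen with earlier results of these data known. Alternatives changed the reach, the FDR, the minimum count, linkage, matching and the expected count.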

Additional observations from a re-analysis of the deposited data

How the results depend on the processing

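No paired analysis was possible because there was only 1 library of each genotype and nothing was tested, and no replicate could be left out. With gene ends required inside the anchor bin the members had 3 pixels in DKO and 6 in WT, and the NKL homeobox list had 0 genes in DKO and 1 in WT. Within 5 kb that list had 3 genes in DKO. The share of all genes with a pixel was not computed at these reaches, so a fall particular to the list cannot be told from one shared by all genes. At an FDR under 0.01 in all neighbourhoods the members had 10 pixels in WT and the NKL list had 2 genes in DKO and 4 in WT. The other 48 recomputed counts, shares and medians over the members or lists stayed within 1.5 times, their interval or 1 SD over pixels. They include the DKO member pixels at the FDR under 0.01, which fell from 12 to 8, at the limit of 1.5 times. They also include the members with a pixel, which fell from 3 to 2 in both lists, at the same limit. The fall in members with a pixel came with gene ends inside the bin, at the FDR under 0.01 and with at least 20 contacts. With gene ends inside the bin Msx1 had no pixel, and Dlx3 had 2 in DKO and 4 in WT. Calls at Msx1 rest on 14 to 17 contacts per pixel, and no Msx1 pixel was left with at least 20. Exact pixel matching left 3 of the 6 WT member loops with a DKO counterpart, against 4 within 2 bins.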

Other observations

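Around Dlx1 and Dlx2 the nearest called contact was the same in outline in both lists, and was chosen for mention after its values were seen. It joined a bin inside the noncoding gene Gm36857, 48.2 kb from Dlx2, to the interior of Itga6, the integrin alpha 6 gene of the hemidesmosome. In DKO the pixel from 71595001 to 71815001 had 16 contacts, 5.05 times expected (2.89 to 8.21). In WT the pixel from 71595001 to 71820001 had 19 contacts, 4.68 times expected (2.82 to 7.31), and a neighbour from 71600001 to 71805001 had 18 (3.85, 2.28 to 6.08). None of these pixels had a member gene within 10 kb.

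Outside the Msx2 triangle a wider contact was called in both lists, also chosen after its values were seen. It joined 53435001 to 53765001 in DKO over 330 kb, with 17 contacts (5.89, 3.43 to 9.44), and 53440001 to 53765001 in WT over 325 kb, with 16 contacts (7.06, 4.03 to 11.5). Its lower anchors lay 26.9 kb from Msx2 in DKO and 21.9 kb in WT, so that Msx2 and the partner bins of its loops fell between its anchors.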
